A study of Mus musculus with 33 samples.

Results

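The 10 genes described here are the Zeb factors *Zeb1* and *Zeb2* and 8 epithelial genes, *Epcam*, *Cdh1*, *Cldn7*, *Krt7*, *Krt8*, *Krt18*, *Krt19* and *Esrp1*. They were taken by gene symbol from the 24421 genes of a bulk RNA-seq experiment on sorted mouse macrophages (macs), and all 10 symbols were found. The 33 samples were Kupffer cells (KCs), the liver's own macs, or alveolar macs (AMs) of the lung, from C57Bl/6 mice aged 6 to 8 weeks. The controls, CRE- KCs (n = 6) and CRE- AMs (n = 5), came from *Zeb2* fl/fl littermates that lacked a Cre transgene. A *Clec4f*-driven Cre on *Zeb2* fl/fl gave Tim4+ KCs (n = 6) and Tim4- KCs (n = 6), which were sorted apart. With the *Itgax*-driven Cre (*Itgax* encodes CD11c, which other lung and liver mononuclear cells make too) on *Zeb2* fl/fl, the sort separated CD11b- AMs (n = 5) from CD11b+ AMs (n = 5). All 6 groups therefore carried floxed *Zeb2* alleles. Within a tissue, CRE+ and CRE- groups differed in the Cre, and the labels name a Tim4 or CD11b sort for CRE+ groups only. In CRE+ over CRE- comparisons the Cre thus cannot be told apart from this sort. Both CRE+ groups shared the Cre and differed in the sort marker. Sorting on Tim4 or CD11b does not select cells by the state of the *Zeb2* alleles, so a CRE+ sample may hold cells that kept an intact allele.

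ZEB1 and ZEB2 are paired zinc finger transcription factors that bind E-box sequences and, mostly with corepressors, turn down their targets. They are best known from epithelial-to-mesenchymal transition (EMT), in which they repress the adhesion genes, junction genes and splicing regulators that hold an epithelium together. ZEB2 is also made by macs, a lineage in which most epithelial genes are low. The 8 epithelial genes were named as ZEB-repressed from that general role and not from binding measured in these cells. They were chosen with earlier results of these data known.

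The reads assigned to genes numbered 9837240 to 24332306 per sample. KCs and AMs carried the markers of their own tissue. The 9 KC markers summed to 25506 to 28287 CPM (counts relative to library size, scaled with TMM factors over 33 samples) in CRE- KCs. In Tim4+ and Tim4- KCs they summed to 16352 to 17593 and 12152 to 15084 CPM, and in AMs to 389 to 705 CPM. The 10 AM markers summed to 20425 to 55969 CPM in AMs and to 378 to 2364 CPM in KCs. Replicates 5 and 6 of each KC group had counts of Y-linked genes and none of *Xist*, whereas the other 27 samples had *Xist* and at most 4 such counts, so KC results are also given within these subsets where a call changed. The labels do not say whether equal replicate numbers mark the same mouse, and p-values measure the spread between these samples.

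*Zeb2*, on chromosome 2 of GRCm38 (44983632 to 45117395, minus strand), was the more abundant Zeb factor in all 6 groups. Per kilobase of exon, its level in CRE- KCs was 14.2 ± 1.94 RPKM (SD, n = 6), against 1.32 ± 0.379 RPKM for *Zeb1*. In CD11b+ AMs, where the levels lay closest, they were 3.11 ± 0.395 and 1.46 ± 0.127 RPKM (SD, n = 5).

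*Zeb2* was lower in CRE+ cells of both tissues. Its level ran from 229 to 339 CPM with a median of 282 in CRE- KCs, from 146 to 211 with a median of 164 in Tim4+ KCs, and from 149 to 196 with a median of 169 in Tim4- KCs. Each CRE+ KC sample thus lay below each CRE- KC sample, while both CRE+ groups overlapped. Tim4+ KCs had a log2 fold change of -0.71 (SE 0.10, edgeR adjusted p = 9.79e-05) over CRE- KCs and Tim4- KCs one of -0.76 (SE 0.10, adjusted p = 1.52e-05). Both pass the test on p but not the fold cut-off of 1 on the log2 scale, and Tim4- KCs did not pass against Tim4+ KCs (log2 fold change -0.042, adjusted p = 0.840).

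In AMs, *Zeb2* fell in 2 steps with the sorted population. CRE- AMs had 184, 169, 204, 205 and 205 CPM, CD11b- AMs 114, 108, 84.7, 113 and 105 CPM, and CD11b+ AMs 70.2, 68.2, 59.7, 62.0 and 50.3 CPM. None of the 3 groups overlapped another. The log2 fold change over CRE- AMs was -0.89 (SE 0.09, edgeR adjusted p = 8.68e-07) in CD11b- AMs, under the fold cut-off, and -1.66 (SE 0.10, adjusted p = 3.23e-11) in CD11b+ AMs, past it. Between the CRE+ groups it was -0.77 (SE 0.10, adjusted p = 3.5e-06). Recombination of this floxed allele is described to leave a shortened mRNA that keeps its downstream end, so the count over the whole gene still includes transcripts of a recombined allele and is no measure of the deleted share. The antisense gene *Zeb2os* shares 653 exonic bases with *Zeb2*, and whether reads were assigned by strand is not given in the sources used here. It had 13.1 ± 2.44 CPM in CRE- KCs and at most 2.92 ± 0.536 CPM (the mean of CRE- AMs) in an AM group.

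*Zeb1*, on chromosome 18, did not follow *Zeb2*. In AMs its level was 4.95, 3.02, 1.23, 5.51 and 2.78 CPM without Cre, 1.01, 4.33, 5.27, 5.25 and 1.92 CPM in CD11b- AMs, and 13.3, 14.5, 16.7, 15.8 and 14.8 CPM in CD11b+ AMs. All 5 CD11b+ samples lay above the other 10 AM samples, which overlapped. *Zeb1* rose by a log2 fold change of 2.08 (SE 0.38, edgeR adjusted p = 0.000158) over CRE- AMs and 2.07 (SE 0.38, adjusted p = 0.000263) over CD11b- AMs. CD11b- AMs differed from CRE- AMs by 0.017 (95% interval -0.81 to 0.85, adjusted p = 0.982). In CD11b+ AMs *Zeb2* was thus at its lowest and *Zeb1* at its highest among AMs.

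In KCs, *Zeb1* lay between 9.36 and 20.3 CPM with a median of 13.3 without Cre, between 11.7 and 26.2 with a median of 18.5 in Tim4+ KCs, and between 6.84 and 15.4 with a median of 11.4 in Tim4- KCs. The 3 groups overlapped. Tim4- KCs had a log2 fold change of -0.78 (SE 0.22, edgeR adjusted p = 0.0253) over Tim4+ KCs, under the fold cut-off. In KC replicates 1 to 4 alone it was -1.13 (adjusted p = 0.0102) and passed both. In replicates 5 and 6, Tim4+ KCs had 11.7 and 16.5 CPM and Tim4- KCs 12.7 and 15.4 CPM. Over CRE- KCs the change was 0.51 (SE 0.22, edgeR adjusted p = 0.230) in Tim4+ KCs. In Tim4- KCs it was -0.27 (SE 0.22, adjusted p = 0.399), and neither passed. The 15 liver endothelial markers, all with counts in each KC group, summed to 879 to 3121 CPM in CRE- KCs, 1801 to 5195 in Tim4+ KCs and 559 to 812 in Tim4- KCs, and so varied with *Zeb1* between the sorted groups. Of 12 stellate cell and fibroblast markers, the sums were 206 to 287, 101 to 207 and 46.4 to 64.8 CPM in the same order. Of these markers 11, 12 and 11 had counts, with *Pdgfra* at 0 in CRE- and Tim4- KCs. In AMs, 12 to 14 of the endothelial markers had counts, with sums of 118 to 157, 155 to 204 and 436 to 514 CPM in CRE-, CD11b- and CD11b+ AMs, led by *Fcgr2b*, which macs also express. The part of these cells in the *Zeb1* values was not tested, and in bulk samples a larger share of cells of a type cannot be told apart from more RNA per cell.

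**Figure D1:**
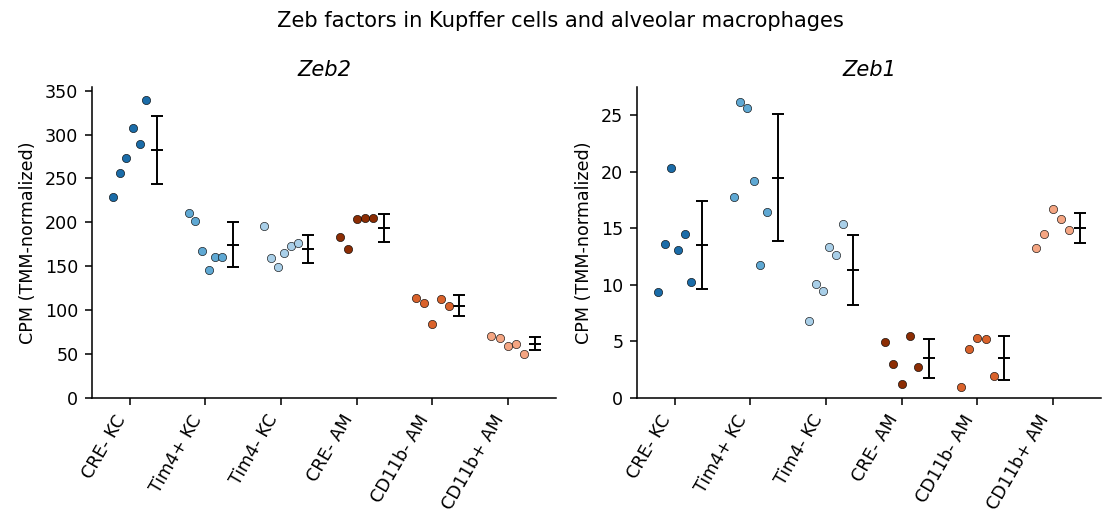
TMM-normalized CPM of *Zeb2* (left) and *Zeb1* (right) in the 6 groups, 1 point per sample, with the mean and SD beside the points and both axes starting at 0. *Zeb2* is lower in all CRE+ groups than in the CRE- group of its tissue, and *Zeb1* in the 5 CD11b+ AM samples (13.3 to 16.7 CPM) stands above the other AM samples.

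Without Cre, KCs and AMs already differed in 6 members. Of 7 tested between CRE- KCs and CRE- AMs, 3 were higher in KCs, 3 were lower, and *Zeb2* passed on p alone (0.56, SE 0.09, edgeR adjusted p = 0.000125). The background is high, since 20.9% of 12145 genes tested were called higher and 12.4% lower. *Zeb1* was higher in KCs (log2 fold change 1.96, SE 0.33, adjusted p = 0.000128), and for both Zeb factors each CRE- KC sample lay above each CRE- AM sample. *Epcam*, *Cdh1* and *Krt19* were lower in KCs. *Epcam* had 1655 counts in all in the CRE- AM samples and 1 in the CRE- KC samples, a ratio of 1992 after scaling, with an exact counting interval of 357 to 78707. The log2 fold change was -7.45 (SE 0.32, adjusted p = 5.11e-11) for *Cdh1* and -11.47 (SE 0.43, adjusted p = 1.44e-11) for *Krt19*. *Krt8* was higher in KCs (3.96, SE 0.78, adjusted p = 0.000471), as was *Krt18* (2.06, SE 0.83, adjusted p = 0.0427), whose call was lost with no filter on low counts (adjusted p = 0.0611), within replicates 1 to 4 or 5 and 6 of the KCs (0.0876 and 0.144) and when CRE- KC replicate 1, 3 or 5 or CRE- AM replicate 2, 3, 4 or 5 was left out (0.0563 to 0.0899). *Cldn7*, *Krt7* and *Esrp1* did not pass the filter on low counts. *Cldn7* had 57 counts in CRE- AMs and none in CRE- KCs, at least 22.9-fold higher in AMs when 3 counts over the group are taken as the floor. *Esrp1* had 8 counts in CRE- AMs, 7 of them in replicate 2, and none in CRE- KCs.

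The E-box letters that ZEB proteins are known to bind, CACCTG on either strand (read as CAGGTG on the other), were searched in the 250 bases before each RefSeq start site, for the members with an entry in the RefSeq promoter table of GRCm38.p6. Entries matched 6 of 10 members, among them *Zeb2*, while *Zeb1*, *Cdh1*, *Krt19* and *Esrp1* had none there. Each of the 5 epithelial members with an entry held the letters at least once, in 5 of their 6 windows, and none of the 4 *Zeb2* windows did. The letters are common, being present in 17.2% of all 32851 windows. Those of *Epcam*, *Krt18*, *Cldn7* and *Krt7* are shown in capitals within 30 bases, as examples among the members whose levels are compared below. All lines read toward the gene.
Epcam, 187 bases before the start, chr17:87635780-87635809, plus strand: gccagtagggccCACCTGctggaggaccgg
Epcam, 19 bases before the start, chr17:87635948-87635977, plus strand: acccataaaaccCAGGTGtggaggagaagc
Krt18, 214 bases before the start, chr15:102027990-102028019, plus strand: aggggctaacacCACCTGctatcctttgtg
Cldn7, second start, 97 bases before it, chr11:69965312-69965341, plus strand: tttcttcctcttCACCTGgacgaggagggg
Cldn7, second start, 57 bases before it, chr11:69965352-69965381, plus strand: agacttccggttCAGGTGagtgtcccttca
Krt7, 44 bases before the start, chr15:101412347-101412376, plus strand: ccgccctgtcccCACCTGtgtgcgctcagc

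In GENCODE M21 the *Epcam* and *Krt18* stretches lie outside annotated genes, whereas those of *Cldn7* and *Krt7* fall within an annotated exon of the same gene. A match describes these letters only, and no binding was measured here. *Krt8* (101996698 to 102004482, minus strand) and *Krt18* (102028180 to 102032027, plus strand) are neighbours on chromosome 15, which also holds *Krt7* (101411043 to 101430313).

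In CRE+ AMs, most epithelial members rose. All 10 members were tested. In CD11b- AMs over CRE- AMs, 6 were called higher and 0 lower by edgeR's quasi-likelihood test, where 3.98% of 11573 genes were called higher and 2.51% lower. limma-voom and DESeq2 called 0 lower too, and 1 member, *Zeb2*, was lower at an unadjusted p under 0.05. In CD11b+ AMs over CRE- AMs, 7 were higher and 1, *Zeb2*, was lower, where 9.57% of genes were called higher and 5.68% lower. In CD11b+ AMs over CD11b- AMs, 4 were higher and 0 lower, where 6.85% were called higher and 3.3% lower. Here too limma-voom and DESeq2 called 0 lower, and 2 members, *Zeb2* and *Krt19*, were lower at an unadjusted p under 0.05. The median log2 fold change of the 10 members was 2.23, 2.24 and 0.92 in these comparisons, against 0.0027, -0.0052 and 0.022 over all genes tested. The comparisons with CRE- AMs share their controls.

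*Epcam*, an adhesion molecule of epithelial cells (chromosome 17, 87635979 to 87651129), rose in both steps. Its level was 14.8, 21.0, 12.5, 11.3 and 19.3 CPM in CRE- AMs, 112, 178, 222, 235 and 146 CPM in CD11b- AMs, and 499, 542, 506, 477 and 525 CPM in CD11b+ AMs. No sample of 1 group reached another group. It rose by a log2 fold change of 3.49 (SE 0.19, edgeR adjusted p = 8.29e-11) in CD11b- AMs and 5.0 (SE 0.20, adjusted p = 1.45e-13) in CD11b+ AMs over CRE- AMs, and 1.51 (SE 0.17, adjusted p = 1.12e-06) between them.

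*Cdh1*, which encodes E-cadherin and is the best known target of ZEB repression (chromosome 8, 106603351 to 106670246), was already made by CRE- AMs, with 113, 74.1, 85.6, 105 and 87.9 CPM. It reached 310, 289, 222, 268 and 262 CPM in CD11b- AMs and 328, 392, 308, 368 and 316 CPM in CD11b+ AMs. Both CRE+ groups lay above CRE- AMs and overlapped each other. *Cdh1* rose by 1.53 (SE 0.11, edgeR adjusted p = 3.39e-09) and 1.86 (SE 0.11, adjusted p = 3.5e-11) on the log2 scale, and between the CRE+ groups the difference was 0.33 (SE 0.11, adjusted p = 0.0182), under the fold cut-off.

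*Cldn7*, a claudin of epithelial junctions (chromosome 11, 69964779 to 69967885), stayed scarce. CRE- AMs had 4 to 17 counts (0.202 to 0.777 CPM), CD11b- AMs 1.88, 2.94, 3.96, 9.75 and 2.27 CPM, and CD11b+ AMs 1.46, 3.35, 2.08, 7.22 and 0.290 CPM. CD11b- AMs lay above CRE- AMs, whereas 1 CD11b+ sample fell among them. It rose by a log2 fold change of 2.94 (SE 0.66, edgeR adjusted p = 0.00266) in CD11b- AMs and 2.40 (SE 0.66, adjusted p = 0.00571) in CD11b+ AMs, the latter with an adjusted p of 0.0929 by limma-voom.

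The keratins parted into 3 patterns. *Krt8* and *Krt18*, which pair into the intermediate filaments of simple epithelia, went from almost no counts to high levels. *Krt8* had 2, 0, 7, 8 and 0 counts in CRE- AMs (0.158 ± 0.180 CPM, SD, n = 5). It had 42.0, 40.2, 59.8, 58.6 and 84.5 CPM in CD11b- AMs and 755, 571, 434, 395 and 645 CPM in CD11b+ AMs. The 3 groups were far apart. The fitted log2 fold change over CRE- AMs was 8.41 (SE 0.40, edgeR adjusted p = 9.84e-12) and 11.70 (SE 0.39, adjusted p = 9.22e-15), sizes that rest on 17 counts in all in CRE- AMs, and between the CRE+ groups it was 3.29 (SE 0.22, adjusted p = 1.09e-09).

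*Krt18* had 26, 10, 0, 6 and 0 counts in CRE- AMs. It had 3.55, 2.33, 3.54, 6.18 and 7.44 CPM in CD11b- AMs and 65.7, 52.3, 34.8, 33.8 and 74.8 CPM in CD11b+ AMs. It followed *Krt8* at a lower level, again without overlap between groups, with log2 fold changes of 3.50 (SE 0.54, edgeR adjusted p = 7.63e-05), 7.01 (SE 0.53, adjusted p = 1.33e-09) and 3.50 (SE 0.40, adjusted p = 1.25e-06) between the CRE+ groups. Per kilobase of exon, *Krt8* stood at 286 ± 76.0 and *Krt18* at 36.4 ± 12.7 RPKM in CD11b+ AMs.

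*Krt19*, a keratin with a short tail that simple epithelia also make (chromosome 11, 100140810 to 100148665), was the most abundant member in CRE- AMs, at 579 ± 17.8 RPKM. Its level was 1039, 1114, 1046, 1070 and 1101 CPM there, 1171, 1241, 1446, 1368 and 1247 CPM in CD11b- AMs, and 835, 1023, 1293, 1073 and 1050 CPM in CD11b+ AMs. CD11b- AMs lay just above CRE- AMs (log2 fold change 0.26, SE 0.08, edgeR adjusted p = 0.0268), and CD11b+ AMs overlapped both (-0.043 over CRE- AMs, 95% interval -0.22 to 0.14, adjusted p = 0.718). *Krt19* thus stood at a high level with or without Cre. *Krt7* had at most 52 counts in any AM sample, and its groups overlapped (log2 fold change 0.56, SE 0.83, adjusted p = 0.682 in CD11b- AMs and -1.01, SE 0.88, adjusted p = 0.384 in CD11b+ AMs). Its promoter window holds the E-box letters shown above, as that of *Krt18* does.

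*Esrp1*, a splicing regulator that keeps epithelial isoforms (chromosome 4, 11331933 to 11386783), had 0, 7, 0, 1 and 0 counts in CRE- AMs, 20, 10, 0, 14 and 21 in CD11b- AMs, and 92, 44, 24, 64 and 16 in CD11b+ AMs. CD11b+ AMs lay above CRE- AMs, and CD11b- AMs overlapped both. It rose by a log2 fold change of 5.0 (SE 1.03, edgeR adjusted p = 0.000503) in CD11b+ AMs. In CD11b- AMs the change was 2.98 (SE 1.01, adjusted p = 0.0365), a call that was lost by limma-voom (adjusted p = 0.156), with all 33 samples in the fit (0.0878), and without CRE- AM replicate 1, 3, 4 or 5 or CD11b- AM replicate 1, 4 or 5 (0.0639 to 0.0847). Between the CRE+ groups *Esrp1* differed by 2.02 (SE 0.84, adjusted p = 0.0657), a difference called by limma-voom and DESeq2 (adjusted p = 0.0231 and 0.0422).

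**Figure D2:**
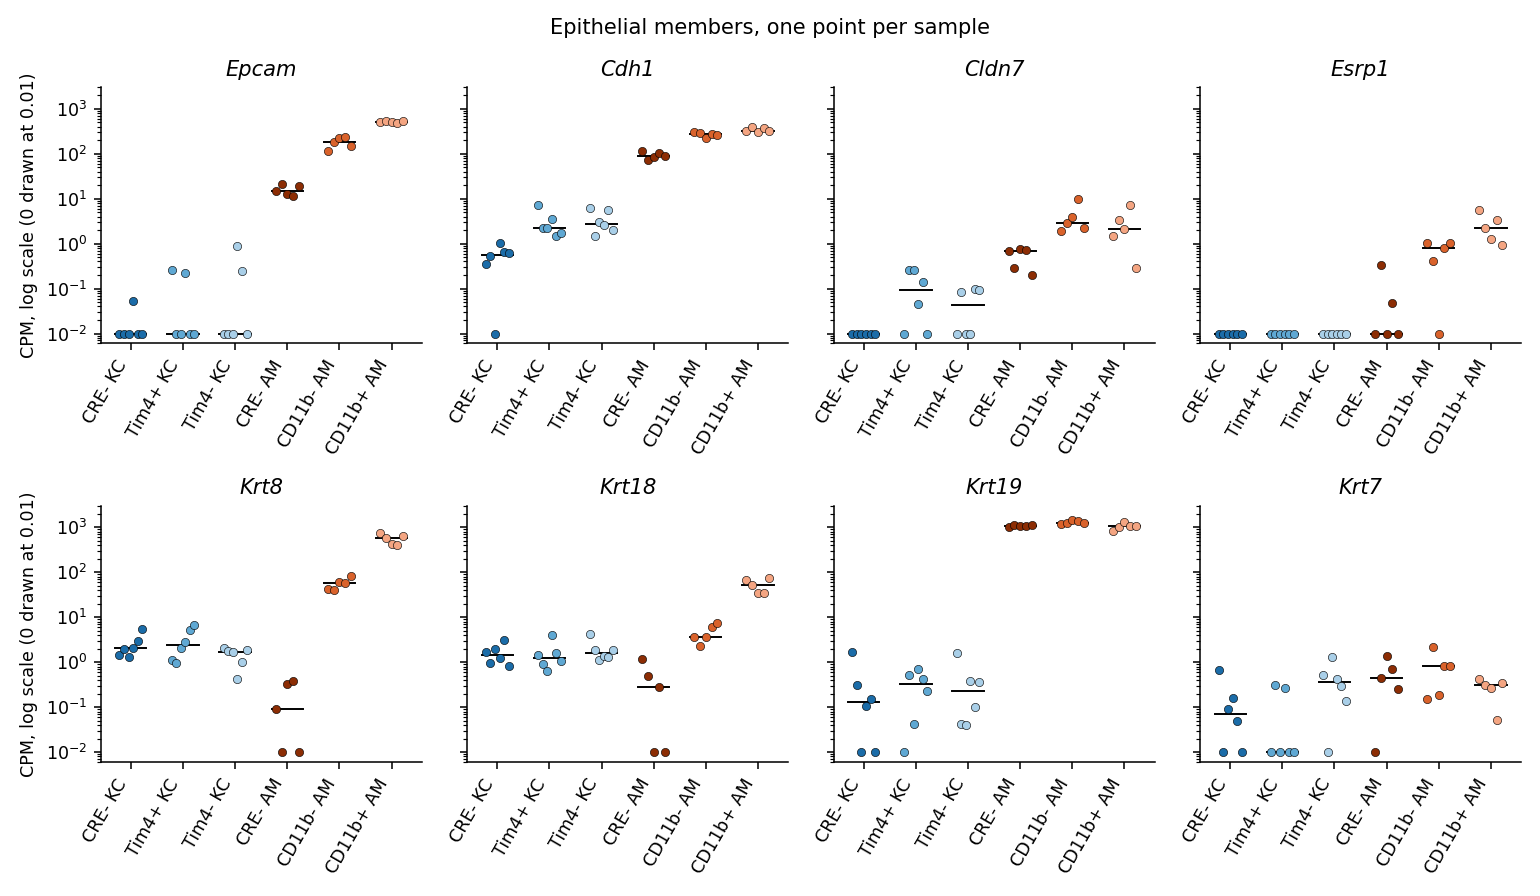
CPM of the 8 epithelial members on a log axis in the 6 groups, 1 point per sample, with the median as a line and samples without a count drawn at 0.01. *Epcam*, *Krt8* and *Krt18* climb in steps from CRE- to CD11b- to CD11b+ AMs, *Krt19* runs from 835 to 1446 CPM in AM samples and reaches at most 1.71 CPM in KC samples, and in KCs *Cdh1* lies higher in both CRE+ groups.

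Markers of other cells were read in the same samples. The 20 lung epithelial markers, 19 of which had counts in CRE- AMs, 19 in CD11b- AMs and 18 in CD11b+ AMs, summed to 108 to 131, 81.5 to 99.0 and 120 to 159 CPM. Among them, *Sftpc*, the surfactant gene of alveolar type II cells, had 13.5 ± 3.29, 18.9 ± 3.60 and 23.5 ± 5.32 CPM (SD, n = 5), *Scgb1a1* of club cells 5.44 ± 1.26, 7.75 ± 2.80 and 6.71 ± 2.89 CPM, and *Cftr* no count in any AM sample. *Napsa*, the highest of the 20, had means of 77.8, 30.3 and 75.8 CPM. Over CRE- AMs, 14 of the 20 were tested. In CD11b- AMs 1 was higher and 1 lower, and in CD11b+ AMs 2 were higher and 1 lower. Their medians were 0.26 and 0.40 on the log2 scale. *Epcam* had means of 15.8 ± 4.23, 178 ± 51.5 and 510 ± 25 CPM in the same groups. Neutrophil markers moved with the epithelial members. Of 13 neutrophil markers in the files, 9, 9 and 11 had counts in CRE-, CD11b- and CD11b+ AMs, and 6 of 8 tested were called higher in CD11b- AMs and 8 of 8 in CD11b+ AMs over CRE- AMs, with medians of 2.49 and 7.0 on the log2 scale. Their sums were 91.5 to 116, 1027 to 2644 and 8329 to 10756 CPM, led in CRE+ AMs by *S100a8* (4439 ± 462 CPM in CD11b+ AMs). *Mpo* and *Elane* were at 0 in all 3 groups, and *Ngp* in CRE- and CD11b- AMs. Of 10 monocyte markers, 9 were tested, of which 1 was higher and 1 lower in CD11b- AMs and 6 were higher and 1 lower in CD11b+ AMs over CRE- AMs, with medians of -0.15 and 2.60 on the log2 scale. The 10 monocyte markers summed to 17474 to 27671, 19847 to 29103 and 37510 to 52274 CPM, led by *Chil3*, which is also an AM marker, with *Vcan* at 0 in both CRE+ groups. Of 10 dendritic cell markers, all with counts, 9 were tested, of which 1 was higher in CD11b- AMs and 2 in CD11b+ AMs, with medians of 0.42 and 1.93. Their sums lay between 10.4 and 16.4 CPM over CRE- and CD11b- AMs and between 15.5 and 25.3 in CD11b+ AMs. The part of other cells in the values of the members was not tested.

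In CRE+ KCs, *Cdh1* was the only one of 5 members tested that was called. It was higher in Tim4+ KCs, where 1.94% of 12500 genes were called higher and 0.376% lower, and in Tim4- KCs, where 3.43% were called higher and 5.39% lower. Its level ran from 0 to 1.05 CPM with a median of 0.564 in CRE- KCs, from 1.5 to 7.36 with a median of 2.24 in Tim4+ KCs, and from 1.49 to 6.23 with a median of 2.75 in Tim4- KCs. Each CRE+ KC sample lay above each CRE- KC sample. It rose by a log2 fold change of 2.51 (SE 0.60, edgeR adjusted p = 0.0119) in Tim4+ KCs and 2.66 (SE 0.60, adjusted p = 0.00255) in Tim4- KCs. Within replicates 1 to 4 the Tim4+ call was lost (2.96, adjusted p = 0.0702), and within replicates 5 and 6 both were (1.32, adjusted p = 0.379, and 2.53, adjusted p = 0.0634). Even so, the highest KC sample stood at 7.36 CPM, under the lowest AM sample at 74.1 CPM. All 16 hepatocyte markers had counts in each KC group, with sums of 262 to 712, 210 to 628 and 126 to 370 CPM in CRE-, Tim4+ and Tim4- KCs. Of 14 cholangiocyte markers, 11, 10 and 8 had counts and summed to 108 to 753, 341 to 890 and 77.9 to 158 CPM, led by *Aqp1*, with *Cftr*, *Tff2* and *Cldn4* at 0. The 10 dendritic cell markers summed to 79.6 to 201, 167 to 343 and 115 to 173 CPM. The part of these cells in the *Cdh1* values was not tested.

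The other members did not pass in KCs. *Krt8* ran from 1.29 to 5.45 CPM in CRE- KCs, 0.963 to 6.62 in Tim4+ KCs and 0.434 to 2.04 in Tim4- KCs, and *Krt18* from 0.823 to 3.05, 0.647 to 4.06 and 1.11 to 4.18 CPM. All of these groups overlapped. The log2 fold change of *Krt8* was 0.28 (95% interval -0.76 to 1.33, edgeR adjusted p = 0.847) in Tim4+ KCs and -0.83 (-1.90 to 0.24, adjusted p = 0.242) in Tim4- KCs, and that of *Krt18* was -0.019 (-1.04 to 1.0, adjusted p = 0.991) and 0.23 (-0.80 to 1.25, adjusted p = 0.772). Of the 5 members tested between Tim4- and Tim4+ KCs, 0 were called by edgeR, limma-voom or DESeq2, where 0.44% of genes were called higher and 5.01% lower by edgeR, and 2, *Zeb1* and *Krt8*, had an unadjusted p under 0.05.

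*Epcam*, *Cldn7*, *Krt7*, *Krt19* and *Esrp1* did not pass the filter on low counts in KCs. *Epcam* had counts in 1 of 6 CRE-, 2 of 6 Tim4+ and 2 of 6 Tim4- KC samples, with 1, 10 and 21 counts in all, 16 of the last in 1 sample. *Cldn7* had 0, 15 and 6 counts, *Krt7* 20, 12 and 54, and *Krt19* 47, 41 and 35. *Esrp1* had no count in any of the 18 KC samples. In Tim4- KCs 3 counts over the group correspond to 0.0254 CPM, so CD11b+ AMs, with 240 counts, were at least 103-fold higher. These 5 genes have no test within KCs in the fit of the 18 KC samples. With all 33 samples in the fit, the AM counts bring them past the filter. There *Cldn7* was called higher in Tim4+ KCs and the other 4 were not called in either CRE+ group. The *Cldn7* call compares 15 counts in Tim4+ KCs with 0 in CRE- KCs. Its fitted size depends on the prior count, so it is not read as a change in KCs.

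Whether the change in CRE+ cells differed between the tissues was tested with an interaction term, the mean log2 change of both CRE+ AM groups less that of both CRE+ KC groups. The tissues also differed in the Cre driver and the sort marker, and only KCs had replicates with Y-linked counts and no *Xist*. These cannot be told apart from the tissue here. Of 13294 genes, 4.65% were called higher and 3.5% lower. *Krt8* (10.33, SE 0.67, edgeR adjusted p = 1.54e-13) and *Krt18* (5.17, SE 0.70, adjusted p = 8.41e-07) changed more in AMs. *Zeb2* differed by -0.55 (SE 0.13, adjusted p = 0.00174), a larger decrease in AMs that is under the fold cut-off. *Cdh1*, called in all 4 CRE+ groups, did not pass (-0.88, 95% interval -1.86 to 0.10, adjusted p = 0.219), nor did *Zeb1* (0.92, 0.12 to 1.73, adjusted p = 0.101), which was called without CRE- AM replicate 4 or CD11b- AM replicate 1 (adjusted p = 0.0349 and 0.0477). *Epcam*, *Cldn7* and *Esrp1* had at most 1 count in all in CRE- KCs, so a fitted change there depends on the prior count, and no value of the difference between tissues is given for them.

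**Figure D3:**
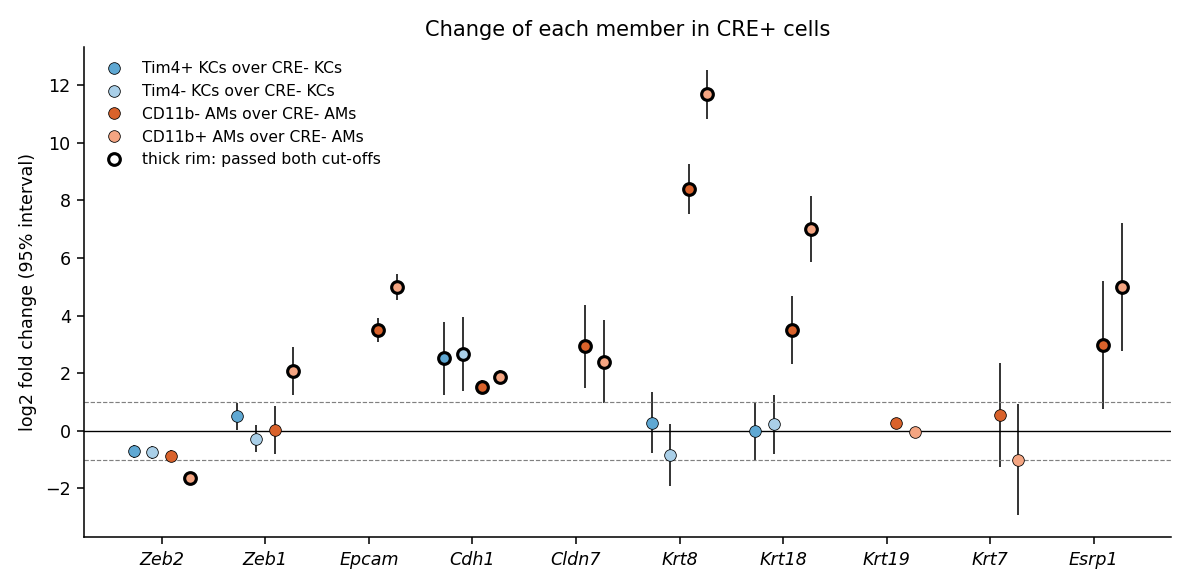
Log2 fold change of each tested member over the CRE- group of its tissue, in Tim4+ and Tim4- KCs and CD11b- and CD11b+ AMs. The 95% intervals were computed from edgeR's fold changes and F statistics. Points with a thick rim passed both cut-offs and the dashed lines mark the fold cut-off, *Cdh1* is past it in all 4 comparisons, and *Krt8* and *Krt18* only in AMs.

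Genes whose log2 CPM was most like that of *Zeb2*, *Zeb1*, *Epcam*, *Cdh1* or *Krt8* over the 33 samples were named as a description, since samples of a group and of a tissue share much of this likeness. For *Zeb2* these were *Ctsf* (Pearson r = 0.938), *Scpep1*, *Acp5*, *Itpk1* and *Pilra* (r = 0.910), and *Ctsf* went from 175 CPM in CRE- KCs to 11.5 in CD11b+ AMs. For *Zeb1* they were *Tm4sf1* (r = 0.887), *Gas6*, *Cd4*, *P2ry1* and *Srgn*. For *Epcam* they were *Plin3* (r = 0.978), *Best1*, *Glipr2*, *Cxcr1* and *Atp6v1c1*, for *Cdh1* *Maff* (r = 0.971), *Gyg*, *Gcnt2*, *Cd24a* and *Gpnmb*, and for *Krt8* *Arg2* (r = 0.930), *Acsl3*, *Mmp12*, *Myo1d* and *E330020D12Rik*. No member was among the 5 genes most like any of these 5.

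Related gene lists were read in the same fits, against the shares of all genes called that were given above for each comparison. Of 41 further epithelial junction and polarity genes, 19 were tested in AMs, and 4 were higher in CD11b- AMs and 7 in CD11b+ AMs, with none lower and medians of 0.089 and 0.67. *Crb3*, a polarity protein of the apical membrane, had 1 count in all in CRE- AMs and 507 and 890 in the CRE+ groups. *Tjp3*, a scaffold of tight junctions, rose by a log2 fold change of 3.65 and 6.15 (SE 0.19 and 0.20, edgeR adjusted p = 5.48e-11 and 7.23e-15), *Cldn1* by 2.65 and 4.09 and *Lamb3*, a laminin chain, by 3.36 and 6.18. In KCs, 21 were tested, and 4 were higher in Tim4+ KCs, namely *Inadl* (3.40), *Tjp3* (1.95), *F11r* (1.36) and *Itga6* (1.20). In Tim4- KCs 5 were higher, *Inadl* (3.95), *Tjp3* (2.58), *Crb3* (2.33), *F11r* (1.72) and *Llgl2* (1.33), and 1, the scaffold *Tjp1*, was lower (-1.33).

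Of 40 other epithelial genes, 23 were tested in AMs, and 10 were higher in CD11b- AMs and 15 in CD11b+ AMs, with none lower and medians of 1.47 and 2.74. The membrane protease *St14*, known as matriptase, rose by a log2 fold change of 4.85 and 6.64 (edgeR adjusted p = 3.77e-09 and 7.43e-12), and its inhibitor *Spint2* by 2.64 and 4.34. *Myo5b*, a motor of apical transport, had no count in CRE- AMs and was at least 18.4-fold higher in CD11b- AMs and at least 33.8-fold in CD11b+ AMs. *Ap1m2* rose by 4.22 in CD11b- AMs and the protease *Prss8* by 3.91 in CD11b+ AMs. In KCs 18 were tested, and 5 were higher in Tim4+ KCs and 6 in Tim4- KCs. *Spint1*, the other inhibitor of matriptase, rose by 6.24 (adjusted p = 2.99e-07) and 7.49 (adjusted p = 1.1e-08), from 0.229 CPM in CRE- KCs to 18.4 and 43.7 CPM, and *Cyb561* by 3.61 and 3.76. *Lsr* rose by 2.17 and 2.85, *Spint2* by 2.12 and *Galnt3* by 1.11 in Tim4+ KCs and *St14* by 3.58 in Tim4- KCs.

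The keratin, claudin and cadherin families held a few other genes that changed. Of 48 keratins, 22 had counts and 8 were tested in AMs. *Krt79*, also an AM marker, had a log2 fold change of -1.74 in CD11b+ AMs (edgeR adjusted p = 2.22e-10) and *Krt80* rose by 1.29 there. In Tim4- KCs *Krt80* rose by 1.56 and *Krt10* was lower (-1.51). The hair keratins *Krt83* and *Krt85* had no count in CRE- KCs and were at least 56.2-fold and 24.3-fold higher in Tim4+ KCs, and at least 90.5-fold and 62.5-fold higher in Tim4- KCs. They had no count in AMs. Among 23 cadherins, *Cdh17* had no count in CRE- AMs and was at least 134-fold higher in CD11b- AMs and at least 1600.0-fold in CD11b+ AMs (45.9 ± 17.2 CPM). In Tim4- KCs *Cdh2*, known as N-cadherin, was lower (-4.27), as was *Cdh4* (-3.37). Of 23 claudins, *Cldn15* rose by 5.01 in CD11b+ AMs, *Cldn23* by 2.54 and 2.83 in CD11b- and CD11b+ AMs, and *Cldn5*, a claudin of endothelium, was lower in Tim4- KCs (-1.64).

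Of 25 corepressors and partners of the Zeb factors, 24 were tested in KCs and 23 in AMs, and 4 were called over CRE- cells by edgeR. Tim4+ and Tim4- KCs had 0 and 1, where 1.94% and 3.43% of all genes were called higher and 0.376% and 5.39% lower. CD11b- and CD11b+ AMs had 2 and 1, where 3.98% and 9.57% were called higher and 2.51% and 5.68% lower. Counts this small are not read as a trait of the list. *Yap1* was lower in Tim4- KCs (-1.33), *Tcf4* (-1.35) and *Kat2b* (-1.07) were lower in CD11b- AMs, and *Smad3* was higher in CD11b+ AMs (2.51, edgeR adjusted p = 0.0456). Of 16 other EMT factors, 7 were tested in AMs. *Snai1* rose by 2.40 and 4.06, from 10 counts in CRE- AMs to 54 and 154, and *Sox4* was lower (-3.09 and -2.48). In KCs *Snai3* had no count in CRE- KCs and was at least 35.3-fold and 48.5-fold higher in Tim4+ and Tim4- KCs, and *Sox4* was lower in Tim4- KCs (-1.66). Of 20 epithelial transcription factors, 3 were tested in AMs. *Ovol2* was lower in both CRE+ groups (-1.64 and -2.42) and *Grhl1* in CD11b+ AMs (-1.97). *Ovol2*, known to repress *Zeb1*, had at most 1 count in all in each KC group.

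Mesenchymal genes, which rise with ZEB activity in EMT, were called in both directions. Of 23, 15 were tested in AMs, with medians of -0.055 and 0.38 in CD11b- and CD11b+ AMs. *Fn1* was lower (-2.87 and -1.28), whereas *S100a4* rose by 1.71 and 2.49. In KCs 18 were tested. *Postn* was lower in Tim4+ KCs (-3.07) and Tim4- KCs (-5.48), and Tim4- KCs also had lower *Cdh2*, *Fn1* (-2.03), *Loxl2* (-1.54) and *Sparc* (-1.27), while *Fbn1* was higher in both. Several of these genes are made by stellate cells, whose marker sums given above were lowest in Tim4- KCs. The part of such cells was not tested.

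The microRNA genes of the miR-200 family (*Mir200a*, *Mir200b*, *Mir200c*, *Mir141* and *Mir429*), which repress both Zeb factors in epithelia, had no count in any of the 33 samples. Short reads were discarded per the study's methods, so these counts do not show whether the microRNAs were made. Beside the *Zeb2* locus, *Arhgap15* was lower by -2.94 and -2.68 in CD11b- and CD11b+ AMs (edgeR adjusted p = 0.000622 and 0.000571), from 12.7 ± 4.71 CPM to 1.67 ± 1.11 and 2.03 ± 1.74 CPM, and did not pass in KCs. *Zeb2os* was lower in CD11b+ AMs (-1.07, adjusted p = 0.00963). Of the genes behind the sorts and the Cre drivers, *Timd4*, which encodes Tim4, had a log2 fold change of -8.22 in Tim4- KCs over CRE- KCs, and *Itgam*, which encodes CD11b, had log2 fold changes of 3.19 and 7.08 in the CD11b- and CD11b+ AMs.

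**Figure D4:**
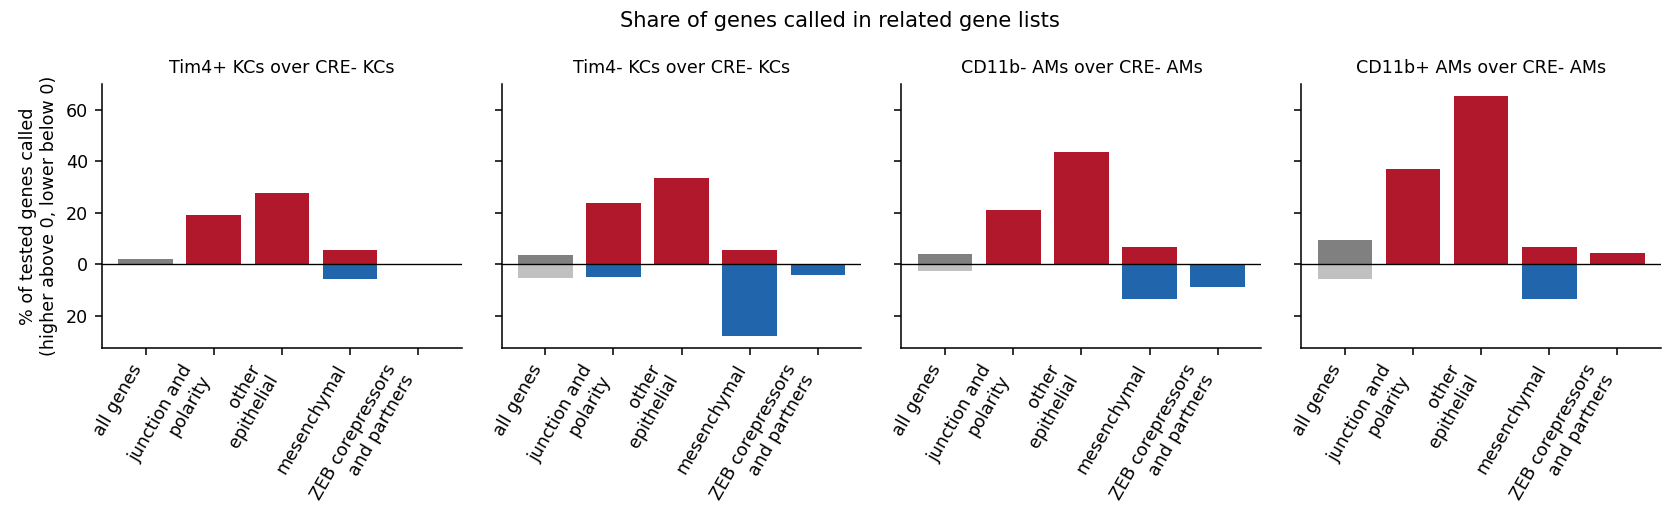
Percentage of tested genes called higher (bars above 0) or lower (bars below 0) in 4 gene lists, beside that of all genes tested, in the 4 comparisons of CRE+ with CRE- cells. The bar of other epithelial genes called higher is the tallest in each panel. Bars of the corepressors and partners of the Zeb factors rest on at most 2 called genes and are not read as a trait.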

How the data were processed

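Bulk RNA was sequenced from 33 sorted mac samples. Per the submitters' processing notes and the study's methods, the authors used FastQC 0.11.4, Trimmomatic 0.35, TopHat2 2.1.0, SAMtools 0.1.18 and the mm10 build, and HTSeq-count gave the deposited values, raw counts of reads per gene symbol. The annotation and strand setting are not given in the sources used here. Rows of unassigned reads (5.88 to 10.1% of reads) were left out.

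Groups came from the sample labels. Counts were tested with edgeR 4.0.16 (quasi-likelihood, TMM factors, filterByExpr, R 4.3.3) in the 11 CRE-, 18 KC, 15 AM or all 33 samples, without replicate block, and p-values were adjusted by Benjamini-Hochberg over all genes tested. Calls needed an adjusted p under 0.05 and a log2 fold change past 1 in either direction. SEs of edgeR changes were taken as the absolute log2 fold change over the square root of the F statistic. The 95% intervals were built from these SEs with a t quantile on the residual degrees of freedom. Alternatives were limma-voom (limma 3.58.1), DESeq2 1.42.0, RLE factors, other filters, samples and cut-offs, a replicate block, and each sample left out (77 fits). The code was tested on simulated counts. RPKM used GENCODE M21 exon lengths. Exact intervals and floors of 3 counts cover counting error only. No 2 libraries agreed within sampling noise.

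The members and lists were chosen with earlier results of these data known. All members were named, and of each other list the called genes with the 4 largest changes; where 5 or fewer were called, the others were named after their values were seen. One gene and 1 sequence are not reported here. The likeness of genes is Pearson's r of log2 CPM, with 0.5 added to each count.

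Equal replicate numbers were checked for pairing. The mean correlation of same-numbered deviations was 0.00353 to 0.153 over 7 pairs of groups, and no pair of groups had every correlation over 0.1. It was highest between Tim4- and Tim4+ KCs, with 5 of 6 over 0.1 and a mean of -0.0305 for unlike numbers. The tests took all samples as unpaired, and whether CRE+ sorts of a tissue came from the same mice is not known.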

Additional observations from a re-analysis of the deposited data

Results flagged for a closer look

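A Dixon test flags about 1 in 20 groups by chance where values are normally spread, which groups near 0 counts are not. There 1 count can set a sample apart, as for *Epcam* in CRE- KCs. Samples that stood apart from their group in this test were found in 11 of 56 groups of member values. They were *Zeb2* in CD11b- AM replicate 3 (84.7 CPM), *Cldn7* in CD11b- AM replicate 4 (9.75 CPM), *Esrp1* in CRE- AM replicate 2 (0.341 CPM) and *Cdh1* in Tim4+ KC replicate 1 (7.36 CPM). In KCs they also included *Epcam* in replicate 4 of the CRE- (0.0527 CPM) and Tim4- KCs (0.867 CPM), *Krt7* in CRE- KC replicate 1 (0.686 CPM), *Krt18* in Tim4+ KC replicate 4 (4.06 CPM) and Tim4- KC replicate 1 (4.18 CPM), and *Krt19* in replicate 1 of the CRE- (1.71 CPM) and Tim4- KCs (1.63 CPM). Tim4- KC replicate 1 was the sample with the fewest reads, 9837240. Without any single sample the *Cdh1* calls in KCs held.

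The change in CRE+ cells differed between AMs and KCs by an interaction test in edgeR for *Krt8* (10.33 on the log2 scale), *Krt18* (5.17) and *Zeb2* (-0.55, adjusted p = 0.00174).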

How the results depend on the processing

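Over all alternatives, 499 member values kept direction and call, 10 lost their call, 14 gained one and 10 turned direction; with 1 sample left out these were 747, 14, 2 and 25. Requiring at least 10 counts in every sample left fewer members tested and 1 of 6 calls between CRE- KCs and AMs, 0 in Tim4+ and 0 in Tim4- KCs, 2 in CD11b- AMs, 4 in CD11b+ AMs, 2 between the CRE+ AMs and 0 in the interaction. Without the fold cut-off there were 2 calls in Tim4+ KCs, 2 in Tim4- KCs, 1 between these and 7 between the CRE+ AMs. With all 33 samples fitted, which brought all 10 members into the test, Tim4+ KCs had 2, *Cdh1* and *Cldn7*. *Cldn7* failed the filter in KCs alone and had no count in CRE- KCs, so its call there is not read as a change. KC replicates 1 to 4 alone gave 0 in Tim4+ KCs and 1 between the CRE+ KCs, and replicates 5 and 6 alone 0 in either CRE+ group. DESeq2 gave no adjusted p for *Krt19* between CRE- KCs and AMs. The cause was not tested.

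Directions that turned were of changes that were not called. limma-voom gave -0.47 for *Krt19* in the interaction and -0.051 for *Zeb1* in CD11b- AMs, and all 33 samples 0.0063 for *Krt18* in Tim4+ KCs. KC replicates 1 to 4 gave 0.25 for *Krt18* in Tim4+ KCs and -0.22 for *Cdh1* between CRE+ KCs. Replicates 5 and 6 gave -1.79 for *Krt19* in the interaction, 0.16 for *Zeb1* and -0.31 for *Krt18* in Tim4- KCs, and 0.12 for *Zeb2* between CRE+ KCs.

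With each sample left out, ranges that crossed 0 were, in the interaction, -1.95 to 0.096 for *Krt7* and -1.31 to 0.75 for *Krt19*; in CD11b- AMs -0.20 to 0.25 for *Zeb1* and -0.18 to 1.22 for *Krt7*; in CD11b+ AMs -0.13 to 0.030 for *Krt19*; and between CRE+ AMs -1.21 to 0.051 for *Cldn7*. In Tim4+ KCs they were -0.057 to 0.66 for *Krt8* and -0.54 to 0.26 for *Krt18*, in Tim4- KCs -0.13 to 0.51 for *Krt18*, and between CRE+ KCs -0.089 to 0.021 for *Zeb2*, -0.096 to 0.62 for *Cdh1* and -0.11 to 0.76 for *Krt18*.

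A replicate block was fitted although the labels do not say whether the numbers pair samples. It lost *Krt18* between CRE- KCs and AMs (2.75, edgeR adjusted p = 0.0688, 5 members called) and turned *Zeb1* in CD11b- AMs (-0.031). The number called stayed the same in the other 7 comparisons. Each of 6 Tim4- KC samples correlated best with the Tim4+ KC sample of its own number, a hint from the data and not the design. Of 5 CD11b+ AM samples, 4 correlated best with their own number among CD11b- AMs, and 4 did so among CRE- AMs.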
